A study of Mus musculus with 5 samples.

Results

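The genes described here are the insulin-like growth factor (IGF) ligands Igf1 and Igf2, the receptor gene Igf1r and 6 genes of the IGF binding protein family, Igfbp2 to Igfbp7. They were taken by symbol from the gene count tables, and all 9 were found among 24970 genes. RNA came from dissected bladder urothelium of mice aged 10 weeks, with 1 library per animal. The 2 wild-type libraries (WT 1 and WT 2) are labelled C57Bl/6 and carry no listed transgene. The 3 knockout libraries (KO 1, KO 2 and KO 3) are labelled Krt5CreERT2;Ncstnflox/flox, for both genotype and strain. This pairs an inducible Cre driven by the basal keratin gene Krt5 with floxed alleles of Ncstn, the gene for the gamma-secretase subunit nicastrin. Such a Cre acts in cells that express Krt5 and reaches their descendants, not the connective tissue that is dissected with them. No source used here gives the induction scheme, and effects of the deletion, of the Cre and its induction, and of strain background cannot be told apart.

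Igf1 and Igf2 are secreted growth factors that signal through the receptor tyrosine kinase encoded by Igf1r, mainly to the PI3K and AKT kinases and the MAP kinase cascade. Most of the ligand outside cells is held by binding proteins, which carry it, keep it from the receptor or present it locally, and proteases that cut them set it free. The products of Igfbp2 to Igfbp6 bind IGFs with high affinity, whereas that of Igfbp7 is a more distant relative that binds them weakly and is found in vessel walls and matrix. In epithelial organs much of the ligand is made by the stroma and acts on the epithelium beside it.

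In the knockouts, messages of Igfbp3 and Igfbp5 were more abundant, by 2.12-fold and 2.37-fold, and those of Igfbp6 and Igfbp7 were less abundant, by 1.52-fold and 1.36-fold. Igfbp2, Igfbp4, both ligands and the receptor did not pass the test. The 4 genes that passed make up 2 of 9 in each direction, where 9.64% of the 14779 tested genes rose and 10.0% fell (19.7% in either direction). The test was edgeR's quasi-likelihood test, with p-values adjusted by Benjamini-Hochberg over all tested genes and a threshold of 0.05. The median log2 fold change was -0.01 over the 9 genes and 0.01 over all genes tested. Knockout and wild-type values did not overlap for 5 of the 9 genes, 3 higher and 2 lower. Over all tested genes 51.0% were apart, 25.9% with the knockouts above and 25.1% with them below.

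Gene counts came to between 12608836 and 27188499 per library. CPM values are counts scaled to these totals with trimmed-mean (TMM) factors. Ncstn itself was at 144 and 130 CPM in the wild types, against 114, 117 and 123 CPM in the knockouts, and missed the threshold (edgeR adjusted p = 0.133). The count spans every exon of Ncstn and every cell in the sample, so it is no check of the deletion. Of 14 urothelial markers, all detected, 5 rose and none fell. Their summed level was 15119 and 17271 CPM in the wild types, against 21057 to 23454 CPM in the knockouts. The 5 that rose were all uroplakin genes (Upk1a, Upk1b, Upk2, Upk3a and Upk3b). The others did not pass, among them Krt5 and Trp63, with log2 fold changes of 0.32 and 0.05 (edgeR adjusted p = 0.226 and 0.815). Of 16 fibroblast markers 12 fell and 1 rose, with summed levels of 17912 and 15826 CPM in the wild types, against 9536 to 11273 CPM in the knockouts. In WT 1, Col1a1, Col1a2, Col3a1 and Dcn held 3707, 4570, 4680 and 2614 CPM of that sum. Ratios to the fibroblast markers therefore mostly follow these genes. Of 12 endothelial markers 5 fell, of 10 smooth muscle markers 1 fell, and of 9 tested leukocyte markers 1 fell. None of these markers was at 0 in all libraries. Upk2, which encodes a plaque protein of the labelled epithelium, changed the most of the 14 urothelial markers. It was at 856 and 924 CPM in the wild types, against 1552 to 1725 CPM in the knockouts. In bulk tissue, fewer cells of a type and less RNA per cell cannot be told apart. The precursor ribosomal RNA Rn45s made up 7.84% and 3.23% of the wild-type gene counts and 0.608% to 1.53% of those of the knockouts. Malat1, a nuclear non-coding RNA, was at 3949 and 2726 CPM in the wild types, against 674 to 764 CPM in the knockouts. Of 7 tested entries listed for nuclear and ribosomal RNA, 5 fell and 1 rose. Whether RNA or library preparation differed between the genotypes was not tested. With KO 3 left out 3989 genes passed, and with WT 1 left out 715 did.

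The start-site windows of the 4 binding protein genes that passed are shown because the main result concerns these genes, 2 higher and 2 lower. Each runs from 250 bases before to 50 bases after the RefSeq transcript start (GRCm38.p6), 5′ to 3′ on the gene's own strand. Capitals mark matches to TATANA or TATTTAA, forms of the TATA element, searched on both strands, and TATANA matches may overlap each other.
Igfbp3, chr11:7213874-7214173, minus strand: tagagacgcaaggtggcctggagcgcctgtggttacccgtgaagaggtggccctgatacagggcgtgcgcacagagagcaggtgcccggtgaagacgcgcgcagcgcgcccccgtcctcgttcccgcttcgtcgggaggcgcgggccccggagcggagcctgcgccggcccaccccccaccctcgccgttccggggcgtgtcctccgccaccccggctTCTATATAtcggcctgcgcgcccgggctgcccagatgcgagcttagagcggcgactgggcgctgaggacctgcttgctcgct
Igfbp5, chr1:72874816-72875115, minus strand: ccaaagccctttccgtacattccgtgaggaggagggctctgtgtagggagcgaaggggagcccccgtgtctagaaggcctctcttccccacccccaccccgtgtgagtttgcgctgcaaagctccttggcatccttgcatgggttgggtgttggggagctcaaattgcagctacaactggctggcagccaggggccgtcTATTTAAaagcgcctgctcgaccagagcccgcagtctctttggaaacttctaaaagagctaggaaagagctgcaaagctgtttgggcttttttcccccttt
Igfbp6, chr15:102143936-102144235, plus strand: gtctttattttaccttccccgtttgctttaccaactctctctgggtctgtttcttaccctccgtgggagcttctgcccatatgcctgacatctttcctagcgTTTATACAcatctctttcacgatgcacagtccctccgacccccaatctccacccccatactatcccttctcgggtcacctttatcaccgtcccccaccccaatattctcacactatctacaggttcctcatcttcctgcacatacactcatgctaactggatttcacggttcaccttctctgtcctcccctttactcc
Igfbp7, chr5:77407996-77408295, minus strand: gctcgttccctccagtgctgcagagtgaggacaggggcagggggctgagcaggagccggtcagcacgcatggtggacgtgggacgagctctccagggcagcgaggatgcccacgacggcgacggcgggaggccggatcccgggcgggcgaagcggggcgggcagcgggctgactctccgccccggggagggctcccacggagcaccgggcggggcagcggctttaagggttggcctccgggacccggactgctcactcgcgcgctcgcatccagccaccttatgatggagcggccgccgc

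The Igfbp3 window had a TATANA match starting 30 bases before the start site, the Igfbp5 window a TATTTAA match starting 51 bases before it, and the Igfbp6 window a TATANA match starting 146 bases before it. The Igfbp6 window ends at 102144235, before the gene start at 102144362 in the GENCODE annotation, so the values of this window refer to another start site. A TATANA match also started 28 bases before the start site of Igfbp4, which did not pass the test. TATANA was present in 24.7% and TATTTAA in 4.51% of 32851 windows of the same length. The Igfbp3 and Igfbp7 windows were rich in CpG dinucleotides, with 37 and 33 of them against a median of 7 over all windows, and the Igfbp5 and Igfbp6 windows had 10 and 8. The letters TGGGAA, the core recognised by the Notch effector RBPJ, were searched on both strands and were in none of these 4 windows. They were in windows of 3 of the 9 genes (Igf1, Igf2 and Igf1r) and in 25.6% of all windows. Some genes, such as Igf2, have several windows, so a share of genes and a share of windows are not like measures. A match is a run of letters and not a shown binding site, and a window without one says nothing of sites elsewhere in the gene.

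**Figure D1:**
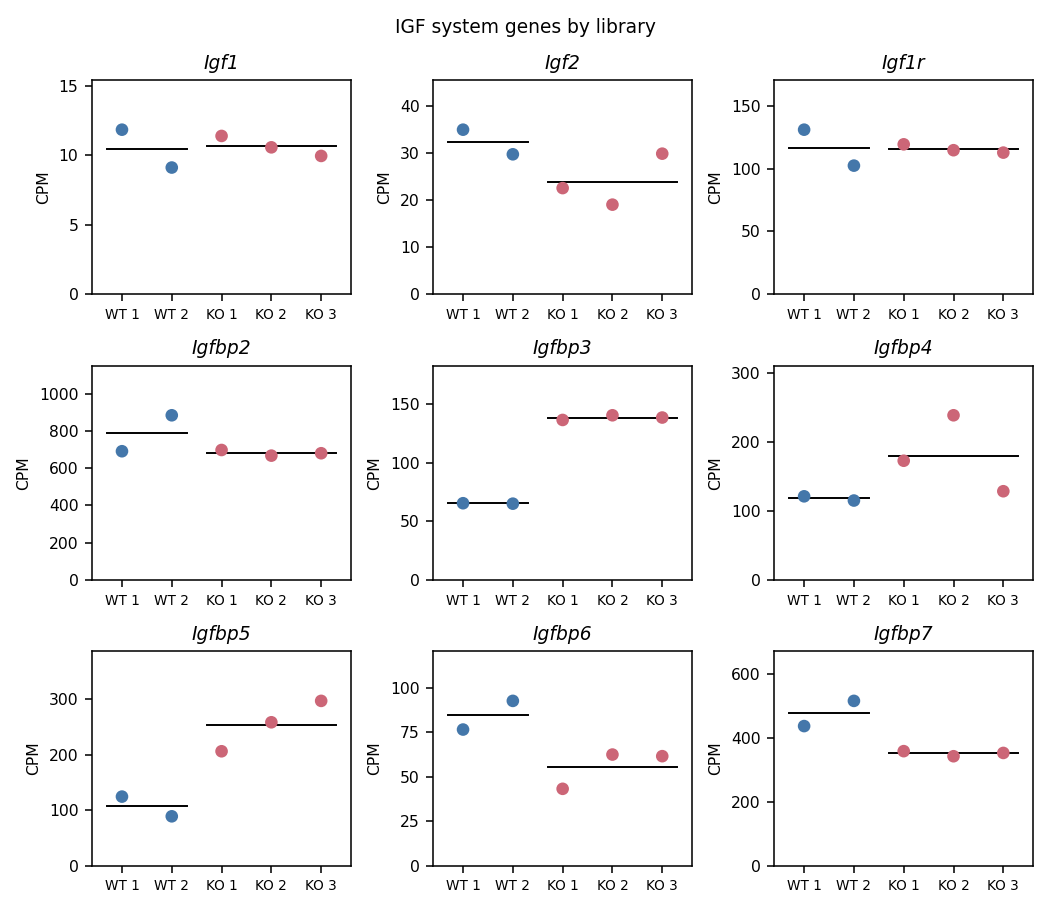
CPM (linear axis from 0) of each of the 9 IGF genes in WT 1, WT 2 (blue) and KO 1, KO 2, KO 3 (red), with a line at each group's mean. Igfbp3 and Igfbp5 sit higher in all 3 knockouts than in both wild types, Igfbp6 and Igfbp7 sit lower, and Igf1 and Igf1r overlap.

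The ligand gene Igf1 (chromosome 10 from 87858265 to 87937042, GRCm38) was at 11.9 and 9.13 CPM in the wild types, against 11.4, 10.6 and 9.97 CPM in the knockouts (values listed for single libraries are in the order WT 1, WT 2 and KO 1, KO 2, KO 3). All 3 knockouts lay between the wild types. The log2 fold change (knockout minus wild type) was 0.02 ± 0.17 (SE), with a 95% interval from -0.35 to 0.39 (edgeR adjusted p = 0.946). The sign of this difference turned negative with upper-quartile scaling (-0.02) and with a filter at 5 CPM (-0.03). Fibroblast markers fell in the same libraries, and Igf1 counts per 1000 fibroblast marker counts were 0.662 and 0.577 in wild types, against 1.20, 0.950 and 0.884 in the knockouts.

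Igf2, the second ligand, is an imprinted gene expressed from the paternal copy and lies on chromosome 7 from 142650766 to 142666816. It was at 35.0 and 29.8 CPM in the wild types, against 22.6, 19.1 and 29.9 CPM in the knockouts. KO 1 and KO 2 lay below both wild types, while KO 3 was level with WT 2. Its log2 fold change was -0.45 ± 0.17 (SE) and missed the threshold (edgeR adjusted p = 0.0900). Without KO 3 the difference was -0.65 and passed (edgeR adjusted p = 0.00341), and it passed with no count filter (edgeR adjusted p = 0.0124). Per 1000 fibroblast marker counts Igf2 stood at 1.95 and 1.88 in the wild types, against 2.37, 1.71 and 2.65 in the knockouts, which overlap. The antisense gene Igf2os shares 98 exon bases with Igf2 and was at 1.92 to 3.74 CPM. No source used here gives the strand setting of the counting, and reads of Igf2 and Igf2os cannot be fully separated. The protein-coding gene Gm49394, on the same strand, shares 3596 of the 5723 exon bases of Igf2 and was not in the count table. Reads from these shared bases cannot be told apart under any strand setting.

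Igf1r, which encodes the signalling receptor (chromosome 7 from 67952827 to 68233668), was at 131 and 102 CPM in the wild types, against 119, 115 and 113 CPM in the knockouts. All knockouts again lay between the wild types. The log2 fold change was -0.01 ± 0.11 (SE), with a 95% interval from -0.27 to 0.24 (edgeR adjusted p = 0.943). The wild types themselves differed more than the group means did. Among related receptors, Insr, the insulin receptor gene, differed by -0.12 on the log2 scale (edgeR adjusted p = 0.551), and Igf2r, whose product takes up and removes Igf2, by 0.23 (edgeR adjusted p = 0.191). Insrr, another related receptor gene, was at 3.81 and 3.42 CPM in the wild types, against 6.78, 6.92 and 3.66 CPM in the knockouts. Its log2 fold change was larger, at 0.695, and missed the threshold (edgeR adjusted p = 0.115).

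Igfbp3 encodes the main carrier of IGFs in blood, which also acts in tissues (chromosome 11 from 7206086 to 7213923). It was at 65.3 and 65.0 CPM in the wild types, against 136, 140 and 138 CPM in the knockouts. Values within each genotype were close, and the groups did not overlap. Igfbp3 rose by 1.08 ± 0.09 (SE) on the log2 scale, with a 95% interval for the fold from 1.85 to 2.43 (edgeR adjusted p = 6.37e-05). It had the rank 55 by p among 14779 genes. The call was made under all 14 other settings, with log2 fold changes from 1.04 to 1.09. Fibroblast and endothelial marker levels moved the other way, so a ratio to them must rise more than the CPM values. Per 1000 fibroblast marker counts Igfbp3 stood at 3.65 and 4.10 in the wild types, against 14.3, 12.6 and 12.3 in the knockouts.

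The neighbouring gene Igfbp1, 3539 bases away, had no count in any library, where the limit of 3 counts corresponds to 0.113 to 0.234 CPM. Igfbp1 encodes a binding protein known mainly from liver.

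Igfbp5 encodes a binding protein that also attaches to extracellular matrix (chromosome 1 from 72857932 to 72874884). It was at 124 and 88.9 CPM in the wild types, against 206, 258 and 297 CPM in the knockouts. The lowest knockout lay well above the higher wild type, although both groups were spread more widely than for Igfbp3. Igfbp5 rose by 1.25 ± 0.18 (SE) on the log2 scale, with a 95% interval for the fold from 1.81 to 3.12 (edgeR adjusted p = 0.00140). It passed under all 14 other settings, with log2 fold changes from 1.01 without WT 2 to 1.51 without WT 1. Per 1000 fibroblast marker counts Igfbp5 stood at 6.95 and 5.62 in the wild types, against 21.6, 23.2 and 26.3 in the knockouts. Since the marker sum fell, this ratio too must rise more than the CPM values.

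Igfbp2 lies tail to tail with Igfbp5, 5457 bases away on the opposite strand (chromosome 1 from 72824503 to 72852474). It was at 691 and 883 CPM in the wild types, against 697, 667 and 680 CPM in the knockouts. The knockouts were close to each other and to WT 1, and WT 2 was the highest. The log2 fold change was -0.21 ± 0.12 (SE), with a 95% interval from -0.48 to 0.07 (edgeR adjusted p = 0.262). The ratio of the neighbours was not tested.

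Igfbp4 encodes a binding protein that mostly restrains IGF action until it is cut by pappalysin (chromosome 11 from 99041244 to 99054392). It was at 121 and 115 CPM in the wild types, against 173, 239 and 129 CPM in the knockouts. All knockouts lay above both wild types, but KO 3 did so by little and the knockouts differed widely among themselves. The log2 fold change was 0.61 ± 0.20 (SE) and missed the threshold (edgeR adjusted p = 0.0617). Without KO 3 it was 0.78 and passed (edgeR adjusted p = 0.000968), with no count filter it also passed (edgeR adjusted p = 9.48e-05), and without KO 2 it was 0.34 (edgeR adjusted p = 0.154).

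Igfbp6 encodes a binding protein that prefers Igf2 (chromosome 15 from 102144362 to 102149511). It was at 76.6 and 92.7 CPM in the wild types, against 43.2, 62.5 and 61.6 CPM in the knockouts. All knockouts were below both wild types, KO 1 the furthest. Igfbp6 fell by 0.61 on the log2 scale, with an SE of 0.16 (edgeR adjusted p = 0.0237). Without WT 1 or without WT 2 the call was lost (edgeR adjusted p = 0.0715 and 0.155), with log2 fold changes of -0.74 and -0.48. Fibroblast markers fell in the same libraries. Per 1000 fibroblast marker counts Igfbp6 stood at 4.27 and 5.86 in the wild types, against 4.53, 5.61 and 5.46 in the knockouts, all of which lie within the wild-type range. The marker sum is mostly Col1a1, Col1a2, Col3a1 and Dcn. Clec3b, the listed marker that rose, was at 115 and 156 CPM in the wild types, against 176, 250 and 219 CPM in the knockouts. Per 1000 endothelial marker counts Igfbp6 stood at 93.0 and 118 in the wild types, against 75.1, 90.4 and 102 in the knockouts, which overlap. Whether Igfbp6 follows fibroblast or endothelial content was not tested.

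Igfbp7, the low-affinity relative (chromosome 5 from 77349240 to 77408041), was at 438 and 517 CPM in the wild types, against 359, 343 and 353 CPM in the knockouts. The knockouts lay close together below both wild types. Igfbp7 fell by 0.44 on the log2 scale, with an SE of 0.11 (edgeR adjusted p = 0.0174). Leaving out WT 2 or KO 2 ended this call (edgeR adjusted p = 0.0872 and 0.0619), with log2 fold changes of -0.33 and -0.43. Endothelial markers summed to 823 and 785 CPM in the wild types, against 576, 691 and 604 CPM in the knockouts. Per 1000 endothelial marker counts Igfbp7 stood at 532 and 659 in the wild types, against 623, 496 and 585 in the knockouts, which overlap. Taken to 1000 fibroblast marker counts, it was at 24.4 and 32.6 in the wild types, against 37.6, 30.8 and 31.3 in the knockouts. These overlap as well, so the ratios do not tell the marker lists apart. The exons of Igfbp7 share 85 bases with those of Polr2b on the opposite strand, and Polr2b was at 82.5 to 92.6 CPM.

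**Figure D2:**
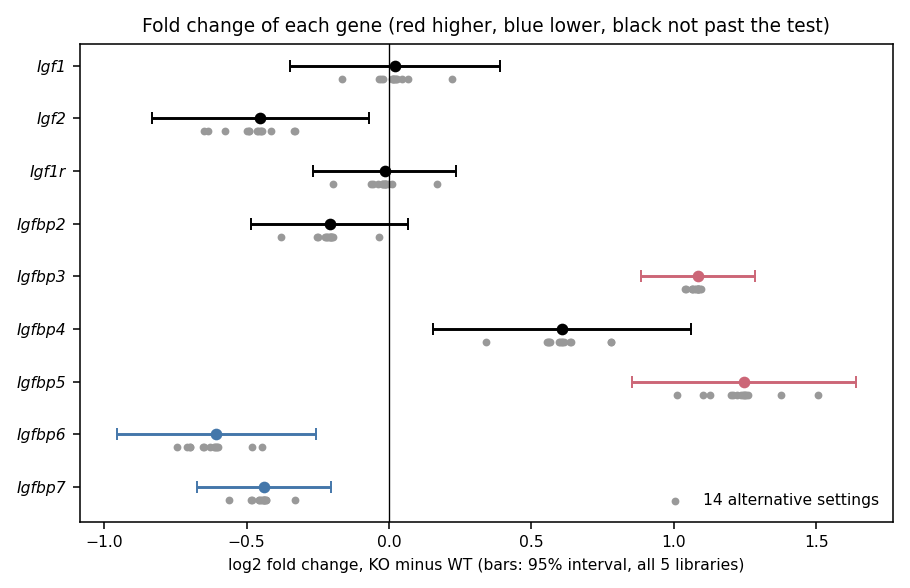
Log2 fold change (knockout minus wild type) of each gene with its 95% interval from the fit of all 5 libraries, and below it, in grey, the values under 14 alternative settings. Igfbp3 and Igfbp5 lie between 1.01 and 1.51 in every setting, whereas Igf1 and Igf1r fall on both sides of 0.

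**Figure D3:**
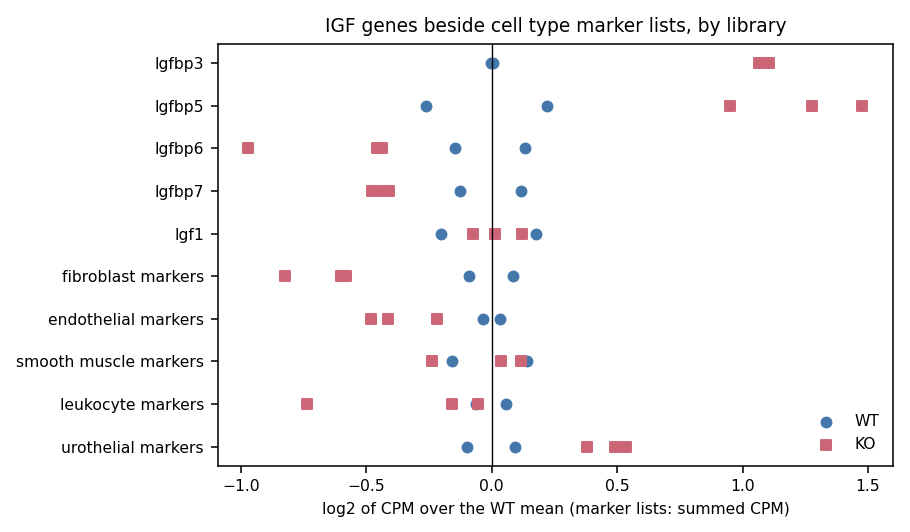
Log2 of each library's CPM over the wild-type mean for 5 IGF genes, and of the summed CPM for 5 cell type marker lists (blue circles WT, red squares KO). Igfbp6, Igfbp7, fibroblast and endothelial markers lie lower in all 3 knockouts, Igfbp3, Igfbp5 and urothelial markers higher, and Igf1 overlaps.

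The part of these marker changes in the IGF gene changes was not tested. The ratios given are descriptions, and none was taken to the urothelial markers. Among the genes that passed, Igfbp3 and Igfbp5 moved in the direction of the urothelial markers that rose, which were all uroplakin genes. Igfbp6 and Igfbp7 moved in that of the fibroblast and endothelial marker sums. A gene that rises or falls must share the direction of one of these groups, so this does not tell in which cells the IGF messages changed.

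Levels of different genes were compared per length, as CPM per kilobase (kb) of annotated exon. In the wild types Igfbp2 was at 426 ± 73.8 (SD, n = 2) and Igfbp7 at 395 ± 46.2 CPM per kb, and their ranges overlapped. These levels exceeded those of 99.6% and 99.5% of 14604 tested genes with a length. Igfbp6 followed at 76.1 ± 10.3 CPM per kb, then Igfbp4 at 26.8 ± 0.979, Igfbp3 at 20.8 ± 0.0853 and Igfbp5 at 17.8 ± 4.18 CPM per kb. Neighbours in that order did not overlap, but Igfbp3 and Igfbp5 were nearly level in WT 1, at 20.9 and 20.7 CPM per kb. The receptor gene Igf1r at 6.94 ± 1.20 and Igf2 at 5.66 ± 0.646 CPM per kb overlapped, and Igf1 was last at 1.06 ± 0.195 CPM per kb. In the knockouts Igfbp6, Igfbp3, Igfbp5 and Igfbp4 came to 50.1 ± 9.78, 44.2 ± 0.635, 42.3 ± 7.59 and 40.8 ± 12.6 CPM per kb (SD, n = 3), and each overlapped its neighbour. The order of Igfbp2 and Igfbp7 at the top, and of Igf1r, Igf2 and Igf1 at the bottom, was the same in both genotypes.

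**Figure D4:**
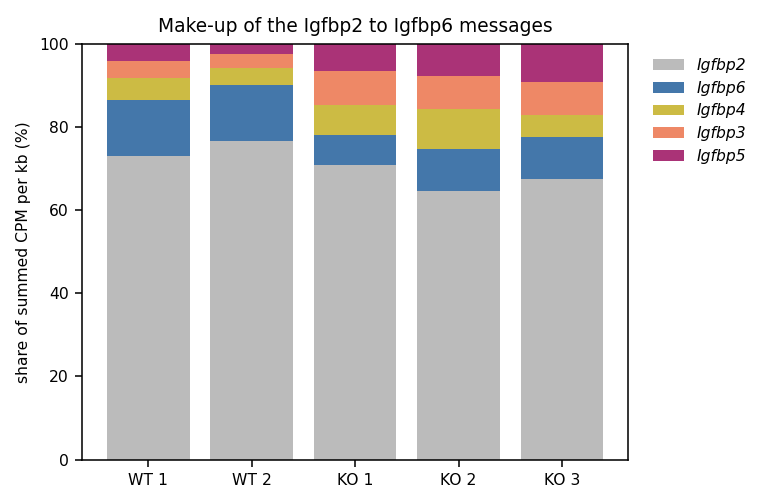
Share (%) of each gene in the summed CPM per kb of Igfbp2 to Igfbp6 in each library, as stacked bars. Igfbp3 and Igfbp5 together made up 8.13% and 5.70% in the wild types, against 14.6% to 17.1% in the knockouts, while Igfbp2 remained the largest share in all 5 libraries.

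Summed over the 5 high-affinity binding protein genes, the level was 512 and 623 CPM per kb in wild types, against 533, 559 and 546 CPM per kb in the knockouts, which lie within the wild-type range. Within that sum the shares differed. Igfbp3 and Igfbp5 together accounted for 8.13% and 5.70% of it in wild types, against 14.6%, 15.7% and 17.1% in knockouts. Igfbp6 accounted for 13.5% and 13.4% in wild types, against 7.29%, 10.0% and 10.1% in knockouts. The ratio of Igfbp5 to Igfbp6 in CPM was 1.62 and 0.959 in the wild types, against 4.77, 4.14 and 4.82 in the knockouts. These shares restate the calls above on another scale and were not tested again. The ratio of summed binding protein to summed ligand messages per length was 70.0 and 102 in the wild types, against 105, 127 and 87.7 in the knockouts, which overlap. Igf2 exceeded Igf1 per length by 5.11 and 5.64 times in the wild types, against 3.43, 3.12 and 5.19 times in the knockouts, where KO 3 lay among the wild types.

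For each gene that passed, the genes of most similar profile were those with the smallest largest difference in log2 CPM from it over the 5 libraries, after centring each gene on its mean. For Igfbp3 these were Grhl3, a transcription factor gene of epithelial barriers, Smoc1, which encodes a matrix calcium-binding protein, and Serping1, which encodes the complement C1 inhibitor, with largest differences of 0.10, 0.10 and 0.11. Grhl3 was at 171 and 168 CPM in the wild types, against 372, 376 and 336 CPM in the knockouts. For Igfbp5 they were Exd1, B230217O12Rik and Gm38396 (0.18, 0.22 and 0.22). For Igfbp6 they were Arhgap9, Lrig1 and Arhgap45 (0.11, 0.11 and 0.12). For Igfbp7 they were Gimap4, Ccdc66 and Apol10b, each at 0.05. Of these similar genes, B230217O12Rik, Arhgap9, Lrig1, Ccdc66 and Apol10b did not pass the test themselves, and the others did. Levels were low for B230217O12Rik (0.767 to 2.26 CPM), Lrig1 (2.15 to 4.11 CPM) and Apol10b (2.88 to 4.25 CPM). With 5 libraries many genes share a profile, and this likeness was not tested.

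Other genes that set IGF activity outside the cell were taken from a list of 20, of which 16 were tested. Of these, 2 rose, 1 fell and 13 did not pass (18.8% called, where 19.7% of all tested genes were), with a median log2 fold change of -0.13 beside 0.01 over all genes. Htra1, which encodes a secreted serine protease that cuts matrix and binding proteins, was at 332 and 359 CPM in the wild types, against 164, 165 and 202 CPM in the knockouts. It fell by 0.96 on the log2 scale with no overlap (edgeR adjusted p = 0.000560). Adamts1, which encodes a secreted metalloprotease, was at 41.8 and 34.1 CPM in the wild types, against 67.2, 81.7 and 67.7 CPM in the knockouts, a 1.90-fold rise (edgeR adjusted p = 0.00136). Pappa, which encodes the pappalysin that cuts Igfbp4 and Igfbp5 proteins, was at 16.5 and 13.9 CPM in the wild types, against 25.4, 19.2 and 26.9 CPM in the knockouts. Pappa rose 1.56-fold (edgeR adjusted p = 0.0219), a call that was lost without WT 1, without WT 2 or without KO 1 (edgeR adjusted p = 0.0852, 0.149 and 0.0720). The growth hormone receptor gene Ghr did not pass, at 41.6 and 40.8 CPM in the wild types, against 39.3 to 40.0 CPM in the knockouts, with a 95% interval for its log2 fold change from -0.26 to 0.16.

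**Figure D5:**
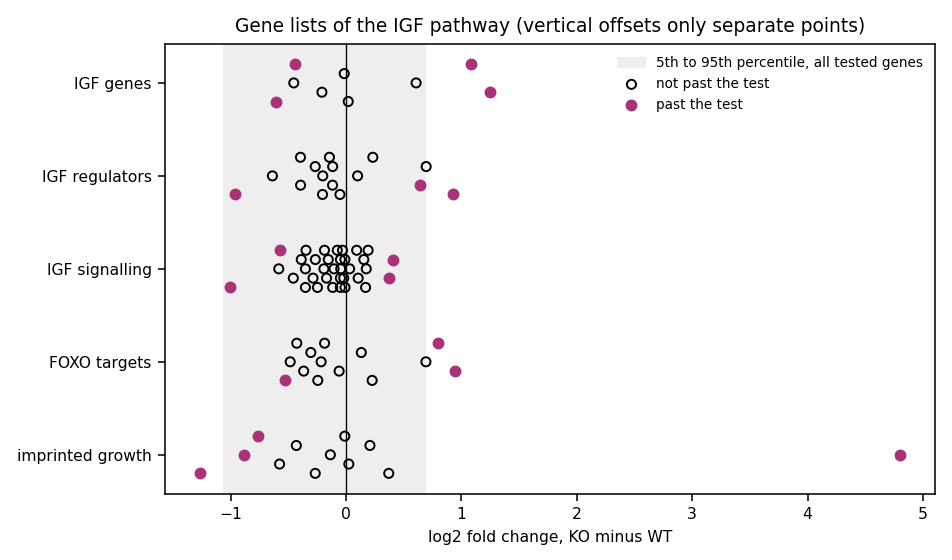
Log2 fold change (knockout minus wild type) of the tested genes in 5 lists, filled where past the test, over a grey band from the 5th to the 95th percentile of all tested genes. Among the points to the right of the band are Igfbp3, Igfbp5 and H19, at 1.08, 1.25 and 4.80, and Zim1, at -1.26, lies to its left.

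Of 35 genes that carry the signal inside the cell, 2 rose, 2 fell and 31 did not pass (11.4% called, below the 19.7% of all tested genes), with a median log2 fold change of -0.07. Irs1, which encodes an adaptor of the IGF and insulin receptors, was at 23.1 and 19.9 CPM in the wild types, against 15.2, 14.1 and 14.1 CPM in the knockouts. It fell by 0.57 on the log2 scale (edgeR adjusted p = 0.0131), a call lost without WT 1 (edgeR adjusted p = 0.142). Eif4ebp1, which encodes a translation repressor inactivated by mTOR, rose by 0.41 and Pik3r3, a regulatory PI3K subunit gene, by 0.37 on the log2 scale (edgeR adjusted p = 0.0186 and 0.0210). Eif4ebp1 did not pass without WT 1 or without KO 2 (edgeR adjusted p = 0.165 and 0.0731). Of the fits that leave out 1 library, Pik3r3 passed only in that without KO 3, and its adjusted p was 0.0740, 0.117, 0.0700 and 0.0813 without WT 1, WT 2, KO 1 and KO 2 in edgeR.

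FOXO factors are held out of the nucleus when AKT is active. Of 14 genes listed as FOXO targets, 2 rose, 1 fell and 11 did not pass (21.4% called, near the 19.7% of all tested genes, with a median log2 fold change of -0.20). Trib1, which encodes a pseudokinase, rose 1.92-fold, from 12.6 and 12.4 CPM to 24.4, 26.1 and 21.6 CPM (edgeR adjusted p = 0.00137). Cited2, which encodes a transcriptional co-regulator, rose 1.74-fold (edgeR adjusted p = 0.00275). Sesn3, a sestrin gene, fell by 0.53 on the log2 scale (edgeR adjusted p = 0.0383), a call lost without WT 1 (edgeR adjusted p = 0.386), without KO 1 (0.115) or without KO 2 (0.0651). Irs2 and Insr, which are also raised by FOXO factors in other tissues, did not pass.

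Igf2 belongs to a group of imprinted genes that act on growth. Of 12 others, 1 rose, 3 fell and 8 did not pass (33.3% called, where 19.7% of all tested genes were, with a median log2 fold change of -0.20). H19, a non-coding RNA gene 72622 bases from Igf2 that shares enhancers with it and is expressed from the maternal copy, was at 1.15 and 2.09 CPM in the wild types, against 68.0, 51.9 and 9.65 CPM in the knockouts. All knockouts were higher, KO 3 by far the least. H19 rose by 4.80 ± 0.79 (SE) on the log2 scale (edgeR adjusted p = 0.00304). It did not pass in a robust edgeR fit (adjusted p = 0.11) or in limma-voom (adjusted p = 0.0576). The same held for edgeR without WT 1 (adjusted p = 0.0713). Igf2 was below or within the wild-type range in the same 3 knockouts. Zim1 and Peg3, neighbouring zinc finger genes of another imprinted region, fell 2.40-fold (edgeR adjusted p = 0.00136) and 1.85-fold (edgeR adjusted p = 0.00763), and Ndn, the necdin gene, fell 1.70-fold (edgeR adjusted p = 0.0192). Leaving out WT 1 ended the calls of Peg3 and Ndn (edgeR adjusted p = 0.0952 and 0.151). Ndn also missed the threshold without WT 2 (edgeR adjusted p = 0.0799), without KO 1 (0.0628) and without KO 2 (0.0522).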

How the data were processed

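The authors deposited raw read counts per gene, 1 column for each of 5 libraries. The submitters' processing notes name HISAT2 2.1.0, HTSeq 0.11.1, DESeq2 and build mm10, in no stated role. No source used here gives the annotation. TRI-Reagent RNA and a TruSeq kit were used, per the labels' protocols. The design text describes separate mice.

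Summary entries of the counting program were left out, and genes held 49.3% to 60.6% of tallied reads. After filterByExpr (minimum count 10, minimum total 15) 14779 genes were tested with edgeR 4.0.16 in R 4.3.3, on TMM-scaled libraries, with a threshold of 0.05. Limma 3.58.1 and DESeq2 1.42.0 served as alternatives, beside other scalings, filters, a robust fit, a block for replicate number and leaving out libraries. On simulated data of 14599 genes the test recovered 48% of 1.5-fold, 74% of 2-fold and 100% of 4-fold changes, and 5.29% of its calls were false. The simulation held few changed genes, with 170 calls against 2907 in the data. The adjusted threshold depends on that share. Each simulated gene was also given the spread typical of its level, with no outlying library. These rates may therefore not hold for the data.

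The 9 genes, the lists and the tests were chosen with earlier results of these data known. All 9 genes passed the count filter. From the pathway lists, up to 6 genes past the threshold with the smallest p were named. Insr, Insrr, Igf2r, Irs2, Igfbp1, Ghr, Igf2os, Polr2b and the urothelial markers given beside Upk2 were named after their values were seen. A result for 1 listed gene is not reported here. The TATA forms and the endothelial ratios were also chosen then. Positions and exon lengths come from GENCODE vM21 (GRCm38), matched by symbol for 97.8% of genes, and start-site windows from RefSeq, matched for all 9.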

Additional observations from a re-analysis of the deposited data

How the results depend on the processing

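Across 14 alternatives, Igfbp3 and Igfbp5 kept their calls, and the 9 genes kept direction and side of the threshold in 110 of 126 values. Igf2 and Igfbp4 passed with no filter and without KO 3. The direction of Igf1 turned with upper-quartile scaling (-0.021) and a filter at 5 CPM (-0.028) and ranged from -0.17 to 0.22 when leaving out 1 library each, and that of Igf1r ranged from -0.20 to 0.17. The cause was not tested. Leaving out 1 library each, the genes higher and lower numbered 2 to 3 and 0 to 3 of the 9, 1 to 3 and 1 to 4 of the regulators, 0 to 2 and 1 to 5 of the signalling genes, 2 to 3 and 0 to 5 of the FOXO targets, 0 to 1 and 1 to 5 of the imprinted genes, and 340 to 1743 and 375 to 2246 of all genes (1424 and 1483 with all libraries). Regulators that fell numbered 1 in the edgeR fit, 2 with no filter, 2 in DESeq2 and 2 in limma-voom. Signalling genes that fell numbered 2, against 4 with upper-quartile scaling, 6 with no filter, 4 in DESeq2 and 4 in limma-voom. FOXO targets that fell numbered 1, against 2 with upper-quartile scaling, 4 with no filter, 2 with a filter at 5 CPM and 2 in DESeq2. The 1 imprinted gene that rose was lost in a robust fit and in limma-voom (0 in both). The median log2 fold change of all genes was -0.03 with upper-quartile scaling, the furthest from 0 of the 14 settings. On simulated data with 2 against 3 libraries, 48% of 1.5-fold and 74% of 2-fold changes were recovered. Small changes can be missed. The simulation had a smaller share of changed genes than the data and no outlying library, so its rates may not hold here.

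Replicate numbers are shared between genotypes. Deviations of same-numbered libraries from their group means had correlations across genes of -0.06 and 0.05. The deviations of WT 1 and WT 2 are mirror images of each other, so these values cannot settle whether same-numbered libraries were paired. With a replicate block, 2211 genes rose and 2426 fell, and 3 of the 9 genes were called in each direction, with Igf1r at a log2 fold change of 0.012. In that fit 4 regulators, 6 signalling genes, 5 FOXO targets and 5 imprinted genes fell. KO 3 has no partner there.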
